A study of Mus musculus with 3 samples.

Results

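The 9 genes described here encode proteins that dock secretory granules at the plasma membrane and fuse them with it: Stx1a, Snap25, Vamp2, Syt7, Syt13, Rab3a, Rab27a, Sytl4 and Exph5. They were chosen by symbol, all 9 were found among the 32285 genes of the count tables, and their counts were summed by cell class and library. The tables hold unique molecular identifiers (UMIs), of which each transcript molecule captured at its 3' end gives 1.

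In an endocrine cell, hormone is stored in dense-core granules that wait near the plasma membrane until calcium rises. Syntaxin-1A (Stx1a) and SNAP-25 (Snap25) on the plasma membrane and VAMP2 (Vamp2) on the granule are SNARE proteins, which coil into a bundle that draws both membranes together. Synaptotagmins such as synaptotagmin-7 (Syt7) sense the calcium, while Rab3a and Rab27a are small GTPases on the granule surface that recruit tethering proteins such as granuphilin (Sytl4) and exophilin-5 (Exph5).

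The islet cells came from ASF-KO mice, SC35-KO mice and wild-type (WT) mice, all 9 months old, with 1 library of each genotype. SRSF1 was once called ASF and SRSF2 SC35. Both are serine- and arginine-rich splicing factors that recognise exonic sequences and steer splice site choice, and the title of the series asks about their part in diabetes. The labels state neither the deleted exons, the cells in which the genes were deleted nor the number of mice behind a library. Islets were hand-picked after collagenase digestion of the pancreas, dissociated with trypsin, and sequenced by droplet capture of polyadenylated RNA read from the 3' end, so splice isoforms of Snap25 or Syt7 were not resolved.

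Each library held between 148320213 and 154099078 UMIs. The cell filter removed 5095 of 12496 barcodes in the library labelled ASF-KO, 2234 of 13919 in that labelled SC35-KO and 978 of 10266 in WT, and 7082, 10799 and 8997 cells, in that order, were kept once doublets were out. Between 11 and 28 kept cells of any pair of libraries shared a barcode sequence. Cells were called X-like by the share of their UMIs that came from a hormone or by marker genes: 3921 beta-like, 1442 alpha-like and 562 delta-like cells were labelled ASF-KO, 5070, 2645 and 1164 were labelled SC35-KO, and 4752, 1294 and 575 were WT. Of 12 beta cell markers, 10 or 11 were highest in the beta-like class of each library, as were all 10 alpha and all 10 endothelial markers in theirs and 5 or 6 of 7 delta markers, but only 3 of 8 gamma markers were highest in the gamma-like class. The gates used hormones and markers from these same lists. These marker counts were therefore partly fixed by the gates and are no independent check of the classes. Beta-like cells had medians of 26510 UMIs (ASF-KO), 17283 (SC35-KO) and 22334.5 (WT). In beta-like cells Srsf1 stood at 37.1 CPM (UMIs of the gene per 1000000 UMIs of the class) in the library labelled ASF-KO, 40.4 in that labelled SC35-KO and 38.6 in WT, and Srsf2 stood at 54.0, 26.7 and 27.6 CPM in the same order. Neither targeted gene was clearly lower under its own label, and a 3' tag that lies outside the deleted exons is no check of a deletion, so the libraries are called by their labels.

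With 1 library per genotype there was no replicate check and no test between genotypes: every difference is between libraries, and every 95% interval covers counting error only. Ins1 and Ins2 together took 63.8% of the UMIs of beta-like cells in the library labelled ASF-KO, 63.2% in that labelled SC35-KO and 53.5% in WT. CPM of any other gene is a share of the same total, and the CPM ratio to WT of the median gene in beta-like cells was 0.740 for ASF-KO and 0.739 for SC35-KO. Ratios are therefore given both as CPM ratios and as log2 ratios relative to the median gene of the class (a shift of -0.43 and -0.44 in beta-like cells). Relative to the median gene a value of 0 means that a gene moved with the rest, and a gene counts as past the fold from 1.5-fold up or down. In alpha-like cells the median gene stood at 1.03 (ASF-KO) and 0.870 (SC35-KO) of WT, and in delta-like cells at 1.01 and 1.02. Whether fewer transcripts per cell or more insulin RNA set the lower CPM of KO-labelled beta-like cells cannot be told apart. Orders of cell classes are in CPM unless stated. Within a library, the median gene of beta-like over alpha-like cells had log2 CPM ratios of -1.06 (ASF-KO), -0.83 (SC35-KO) and -0.60 (WT). Over delta-like cells they were -1.22, -1.23 and -0.81.

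All 9 genes are protein-coding and lie in mouse build GRCm38 at chr5:135023482-135051100 (Stx1a), chr2:136713453-136782428 (Snap25), chr11:69088490-69092384 (Vamp2), chr19:10389090-10453180 (Syt7), chr2:92915098-92956058 (Syt13), chr8:70754679-70758677 (Rab3a), chr9:73044854-73097629 (Rab27a), chrX:133936385-133981812 (Sytl4, minus strand) and chr9:53301670-53377514 (Exph5), on the plus strand except for Sytl4. No annotated gene overlaps them on the same strand, and Mpv17l2 overlaps Rab3a on the other strand. RefSeq promoter windows (GRCm38.p6, 250 bases before to 50 after a start site) were at hand for Stx1a, Rab3a, Rab27a, Sytl4 and Exph5, and 4 of them are shown for the genes whose levels set the libraries or cell classes apart below. Snap25, Vamp2, Syt7 and Syt13 are named only. Capitals mark every match, on either strand, of the half-site of a cyclic AMP response element (TGACG), a GC box (GGGCGG) or a CCAAT box (CCAAT), which stand in 20.8%, 35.7% and 37.4% of all 32851 mouse promoter windows of this length. The windows lie at chrX:133981763-133982062 (Sytl4, minus strand), chr9:53301420-53301719 (Exph5), chr9:73044560-73044859 (Rab27a, the first of its 2 windows) and chr8:70754453-70754752 (Rab3a, the first of its 2 windows), all but the first on the plus strand, and are written in the direction of transcription.
Sytl4: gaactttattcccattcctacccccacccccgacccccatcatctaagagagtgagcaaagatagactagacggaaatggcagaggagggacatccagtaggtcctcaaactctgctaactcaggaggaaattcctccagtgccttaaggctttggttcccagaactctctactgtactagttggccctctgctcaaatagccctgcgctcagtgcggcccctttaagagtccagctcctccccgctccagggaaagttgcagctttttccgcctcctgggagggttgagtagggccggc
Exph5: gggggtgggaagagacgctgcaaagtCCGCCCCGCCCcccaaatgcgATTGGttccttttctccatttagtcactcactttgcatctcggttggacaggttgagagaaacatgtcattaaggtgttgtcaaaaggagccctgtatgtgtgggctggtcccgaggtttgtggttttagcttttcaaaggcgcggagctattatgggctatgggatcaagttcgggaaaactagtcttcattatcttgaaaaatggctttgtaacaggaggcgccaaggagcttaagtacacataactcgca
Rab27a: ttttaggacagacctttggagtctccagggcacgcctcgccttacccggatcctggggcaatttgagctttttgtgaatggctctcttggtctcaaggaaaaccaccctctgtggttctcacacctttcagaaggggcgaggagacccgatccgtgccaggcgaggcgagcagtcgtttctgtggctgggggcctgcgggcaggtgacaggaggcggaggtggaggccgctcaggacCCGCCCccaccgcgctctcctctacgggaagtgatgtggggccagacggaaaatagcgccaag
Rab3a: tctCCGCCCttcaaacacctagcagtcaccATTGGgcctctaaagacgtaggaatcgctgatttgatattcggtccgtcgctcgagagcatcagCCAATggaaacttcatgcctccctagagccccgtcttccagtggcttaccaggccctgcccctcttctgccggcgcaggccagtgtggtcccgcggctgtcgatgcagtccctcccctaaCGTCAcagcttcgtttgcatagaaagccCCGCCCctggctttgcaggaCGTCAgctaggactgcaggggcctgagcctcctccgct

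The granuphilin gene Sytl4 held none of these letters in its window, nor an E-box (CANNTG, in 72.3% of windows). Exph5 held 2 overlapping GC boxes and 1 CCAAT box upstream of the start site, and the first Rab27a window held 1 GC box. The first Rab3a window held 2 half-sites, which begin 36 bases before and 12 bases after the base annotated as the start site, together with 2 GC boxes and 2 CCAAT boxes. These matches describe the letters of the windows only.

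**Figure D1:**
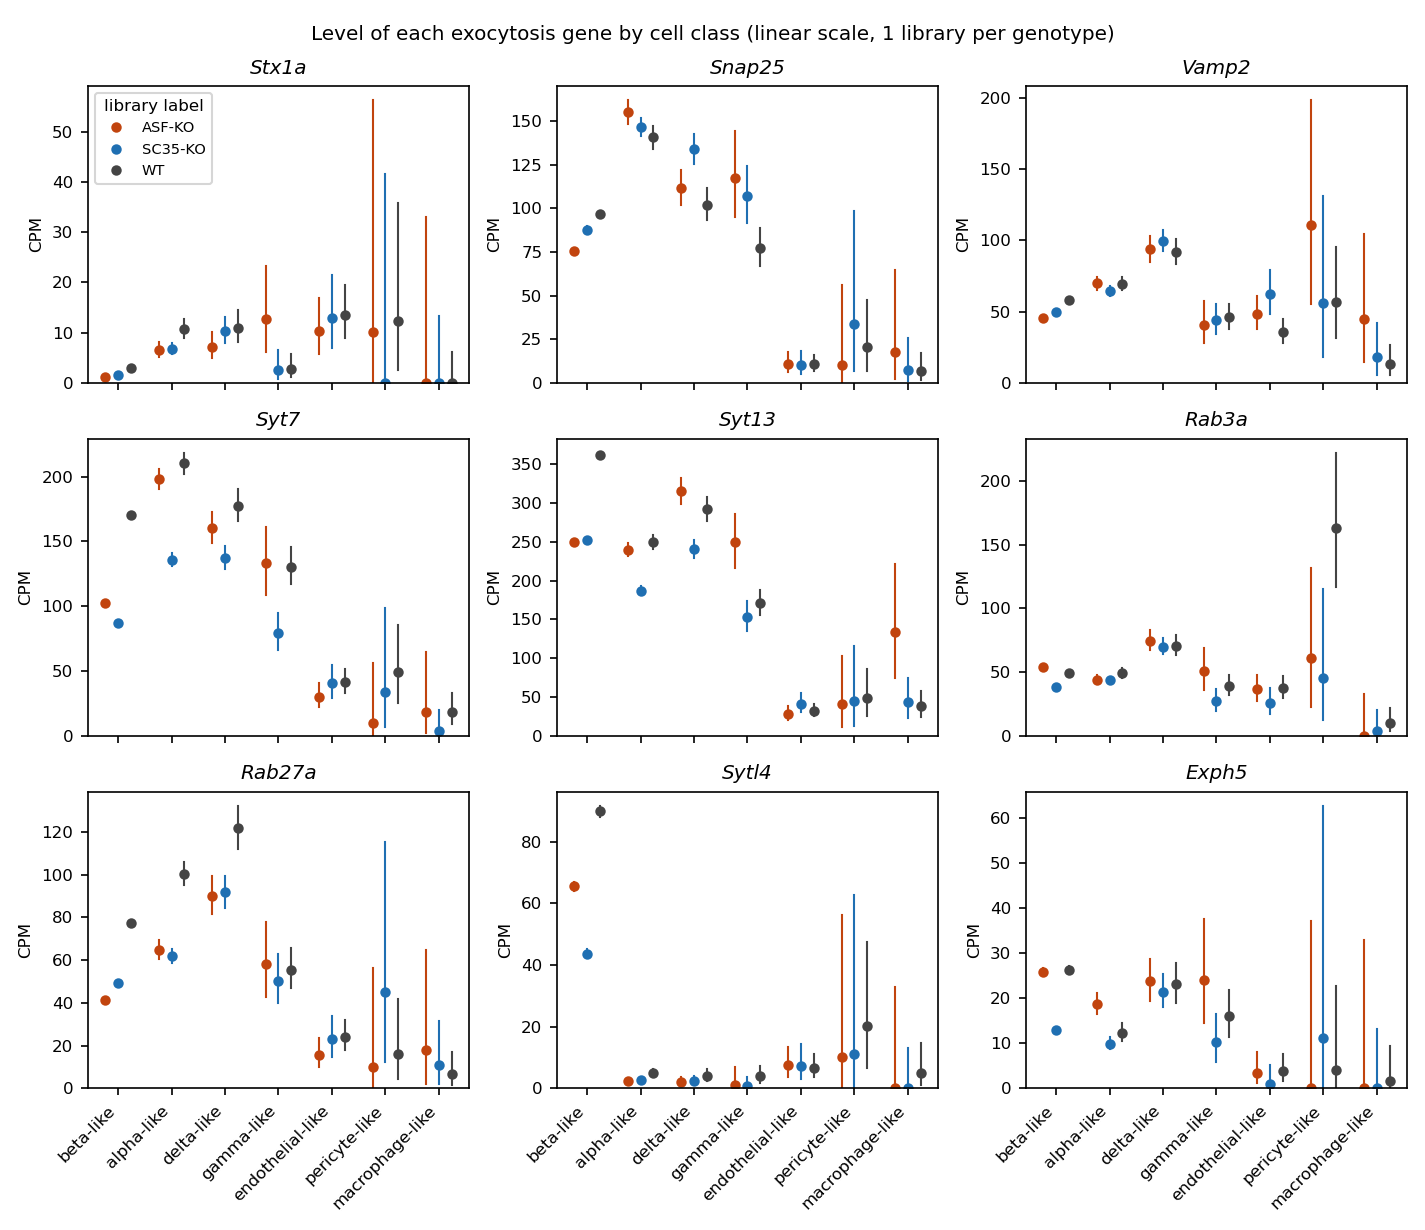
Level of each gene in CPM (vertical axis, linear, with its own scale in each panel) by cell class and library, with points for class sums and lines for exact 95% Poisson intervals, which cover counting error only. Sytl4 stands between 43.7 and 89.8 CPM in beta-like cells and at most 4.92 CPM in alpha-like and delta-like cells, Snap25 is highest in alpha-like cells, and pericyte-like and macrophage-like sums carry wide intervals.

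The target-membrane SNAREs differed between cell classes more than between libraries. Snap25, the plasma-membrane SNARE that supplies a pair of helices to the bundle, stood in alpha-like cells at 155 CPM (ASF-KO), 147 CPM (SC35-KO) and 141 CPM (WT), above each of the other 6 classes that had values in all 3 libraries. Delta-like cells came next at 112, 134 and 102 CPM, a range that overlapped gamma-like cells (118, 107 and 77.2 CPM), which in turn overlapped beta-like cells (75.8, 87.9 and 96.9 CPM). Relative to the median gene, Snap25 of beta-like over alpha-like cells stood at log2 ratios of 0.03 (ASF-KO), 0.09 (SC35-KO) and 0.06 (WT). Endothelial-like cells held 10.9, 10.1 and 10.6 CPM. Free RNA of beta-like, alpha-like and delta-like cells would bring 8.58, 8.56 and 5.74 CPM. That holds if all insulin, Gcg and Sst UMIs of endothelial-like cells came from it. The counting interval held that value under both KO labels but lay above it in WT (6.64 to 16.1). Snap25 was thus an endocrine gene in every library, and it was not beta-specific.

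In beta-like cells the CPM ratio of Snap25 to WT was 0.783 (0.760 to 0.806) for ASF-KO and 0.907 (0.881 to 0.934) for SC35-KO. Relative to the median gene these are 0.08 and 0.30 on the log2 scale, so the direction of Snap25 depends on the scale: lower than WT in CPM, level with or above the median gene. In delta-like cells, where the median gene hardly moved, Snap25 of the library labelled SC35-KO was higher than WT on both scales, at a CPM ratio of 1.31 (1.17 to 1.47).

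Stx1a, the syntaxin that pairs with SNAP-25, had few 3' tags. It stood at 1.17 CPM (ASF-KO), 1.57 CPM (SC35-KO) and 2.99 CPM (WT) in beta-like cells, from 127, 143 and 323 UMIs. Those sums are under the 10 CPM asked of a measured gene, so Stx1a counts as not measured in beta-like cells. Alpha-like cells held more, 6.51, 6.72 and 10.7 CPM, and delta-like cells 7.20, 10.3 and 11.0 CPM. Endothelial-like cells, at 10.3, 12.8 and 13.5 CPM, held as much Stx1a as the hormone cells, and no UMI was found in macrophage-like cells, where 3 UMIs would have been 26.8, 10.7 and 5.04 CPM. In beta-like, alpha-like and delta-like cells the KO-labelled values were below WT. The alpha-like ratio was 0.608 (0.459 to 0.802) for ASF-KO and 0.628 (0.493 to 0.8004) for SC35-KO. The delta-like ratio was 0.654 (0.407 to 1.04) for ASF-KO and 0.936 (0.643 to 1.37) for SC35-KO, and both of these intervals reached above WT.

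The granule SNARE Vamp2 was not confined to hormone cells. Delta-like cells held 94.0 CPM (ASF-KO), 99.8 CPM (SC35-KO) and 92.0 CPM (WT), alpha-like cells 69.9, 64.2 and 69.6 CPM, and beta-like cells 45.8, 50.1 and 57.9 CPM. Vamp2 acts in many constitutive and regulated fusion steps, and endothelial-like cells held it at 48.5, 62.3 and 35.7 CPM, a range that in CPM overlaps that of beta-like cells. Free RNA of beta-like, alpha-like and delta-like cells would bring 4.98, 4.75 and 3.41 CPM of it there. Relative to the median gene, Vamp2 of beta-like over endothelial-like cells stood at log2 ratios of 1.33 (ASF-KO), 1.13 (SC35-KO) and 1.63 (WT). Over delta-like cells it stood at 0.19, 0.24 and 0.14. The beta-like ratio to WT was 0.792 (0.763 to 0.822) for ASF-KO and 0.866 (0.833 to 0.899) for SC35-KO, or 0.10 and 0.23 relative to the median gene, so Vamp2 too lay below WT in CPM and above the median gene.

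Syt7 and Syt13 were both lower than WT in CPM in the KO-labelled beta-like cells, and Syt7 also lay below the median gene. Syt7, a calcium sensor of slow kinetics that acts in insulin and glucagon release, stood at 102 CPM (ASF-KO), 87.0 CPM (SC35-KO) and 170 CPM (WT). The CPM ratio was 0.6001 (0.586 to 0.615) for ASF-KO and 0.511 (0.498 to 0.525) for SC35-KO, or -0.30 and -0.53 relative to the median gene. Both values stayed inside 1.5-fold.

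The lower Syt7 of the library labelled SC35-KO was not a matter of beta-like cells alone. Alpha-like cells held 198 CPM (ASF-KO), 136 CPM (SC35-KO) and 210 CPM (WT), and delta-like cells 160, 137 and 178 CPM. Relative to the median gene, the SC35-KO values were -0.43 in alpha-like and -0.39 in delta-like cells, against -0.13 and -0.16 for ASF-KO. In CPM the order of classes by Syt7 was alpha, delta, beta and gamma, each overlapping the next over the 3 libraries, with endothelial-like cells (30.1, 40.3 and 41.4 CPM) below all of them. Relative to the median gene, Syt7 of beta-like over alpha-like cells stood at log2 ratios of 0.11 (ASF-KO), 0.19 (SC35-KO) and 0.30 (WT). Over delta-like cells it stood at 0.58, 0.58 and 0.75.

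Syt13, an atypical synaptotagmin that does not bind calcium and is known in mouse endocrine cell development, had sums of 250.5 CPM (ASF-KO), 252 CPM (SC35-KO) and 362 CPM (WT) in beta-like cells. Its CPM ratios of 0.692 and 0.696 are near that of the median gene, and the relative values were -0.10 and -0.09. Syt13 ranged over 240 to 316 CPM in delta-like and 187 to 250 CPM in alpha-like cells, and neighbouring hormone classes overlapped over the libraries. In alpha-like and delta-like cells labelled SC35-KO it was below WT, at CPM ratios of 0.747 (0.713 to 0.783) and 0.822 (0.764 to 0.885), whereas those labelled ASF-KO stood at 0.961 (0.915 to 1.01) and 1.08 (1.002 to 1.17).

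The granule GTPases parted in the library labelled ASF-KO. Rab27a, which marks mature granules and recruits granuphilin, stood in beta-like cells at 41.2 CPM (ASF-KO), 49.3 CPM (SC35-KO) and 77.3 CPM (WT). Rab3a, which cycles on and off granules around fusion, stood at 53.8, 38.4 and 49.5 CPM. The CPM ratios of Rab27a were 0.533 (0.514 to 0.553) for ASF-KO and 0.638 (0.615 to 0.661) for SC35-KO, against 1.09 (1.05 to 1.13) and 0.777 (0.744 to 0.811) for Rab3a. Relative to the median gene, Rab27a was at -0.47 and Rab3a at 0.56 under ASF-KO, on opposite sides and both short of the 1.5-fold mark, and at -0.21 and 0.07 under SC35-KO.

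Rab27a was below WT in beta-like, alpha-like and delta-like cells of both KO-labelled libraries, on either scale. In alpha-like cells it stood at 64.9 CPM (ASF-KO), 61.8 CPM (SC35-KO) and 100.5 CPM (WT), in delta-like cells at 90.2, 91.7 and 122 CPM. The relative values were -0.68 and -0.50 in alpha-like cells and -0.44 and -0.43 in delta-like cells, and the alpha-like value of ASF-KO is past 1.5-fold. With hormone and mitochondrially encoded genes out of the total and no median shift, that value was -0.54, inside the mark. Insulin took between 1.46% and 2.90% of the UMIs of alpha-like and delta-like cells. Gcg took 21.84% (ASF-KO), 25.99% (SC35-KO) and 18.7% (WT) of alpha-like UMIs. Sst took 17.12%, 16.18% and 14.96% of delta-like UMIs in the same order. The same total was tried for the other Rab27a values in these classes, which are not given here. Beyond that change of total, the part of these shares in the lower Rab27a was not tested. The KO-labelled libraries share 1 WT library, whose own level enters all of these Rab27a ratios. Gamma-like cells did not repeat the pattern clearly (58.2, 50.4 and 55.6 CPM from 46, 79 and 139 UMIs).

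Relative to the median gene, Rab3a under ASF-KO stood at -0.22 in alpha-like and 0.07 in delta-like cells, against 0.56 in beta-like cells. Alpha-like cells held 43.7 CPM (ASF-KO), 43.4 CPM (SC35-KO) and 49.2 CPM (WT), and delta-like cells 74.6, 69.9 and 70.6 CPM. In CPM, delta-like cells were above beta-like cells in every library, and beta-like, alpha-like and gamma-like cells overlapped. Relative to the median gene, Rab3a was higher in beta-like than in delta-like cells, at log2 ratios of 0.75 (ASF-KO), 0.37 (SC35-KO) and 0.30 (WT). WT pericyte-like cells held 163 CPM (116 to 222) from 40 UMIs in 96 cells, more than any hormone class, while those labelled ASF-KO and SC35-KO held 60.6 and 45.04 CPM from 6 and 4 UMIs.

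Of the measured members, the Rab27 effectors Sytl4 and Exph5 lay furthest from the median gene in beta-like cells labelled SC35-KO. Sytl4 encodes granuphilin, which binds Rab27a and the syntaxin-1A complex, and mouse beta cells without it dock fewer granules. It stood at 65.5 CPM (ASF-KO), 43.7 CPM (SC35-KO) and 89.8 CPM (WT) in beta-like cells, against 2.497, 2.575 and 4.923 CPM in alpha-like cells and 2.02, 2.54 and 4.10 CPM in delta-like cells of the same libraries. Beta-like over alpha-like ratios were 26.2 (18.7 to 38.1), 17.0 (13.0 to 22.6) and 18.2 (14.3 to 23.8). Free beta cell RNA would bring 2.61, 1.54 and 2.46 CPM to alpha-like cells, so much of their small Sytl4 sum is at the level of such RNA.

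Against WT, beta-like Sytl4 had a CPM ratio of 0.729 (0.707 to 0.752) for ASF-KO, level with the median gene at -0.02, and of 0.487 (0.469 to 0.505) for SC35-KO, or -0.60 relative to the median gene. Exph5, a Rab27 effector also called Slac2-b, stood at 25.8 CPM (ASF-KO), 12.9 CPM (SC35-KO) and 26.2 CPM (WT). Its CPM ratio was 0.983 (0.933 to 1.04) for ASF-KO and 0.493 (0.460 to 0.527) for SC35-KO, or 0.41 and -0.59 relative to the median gene. Set directly beside ASF-KO, SC35-KO had 0.501 (0.468 to 0.537) of the Exph5 and 0.668 (0.642 to 0.694) of the Sytl4, where the median gene stood at 0.992.

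In alpha-like and delta-like cells Exph5 under SC35-KO lay closer to WT than in beta-like cells. Delta-like cells held 23.8 CPM (ASF-KO), 21.5 CPM (SC35-KO) and 23.1 CPM (WT), with wide overlap of the intervals. Alpha-like cells held 18.8, 9.97 and 12.4 CPM, so that the library labelled ASF-KO was higher than WT (ratio 1.52, 1.24 to 1.87) and that labelled SC35-KO at 0.807 (0.653 to 0.999). Endothelial-like cells held 3.42, 0.917 and 3.86 CPM, from 5, 1 and 8 UMIs.

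**Figure D2:**
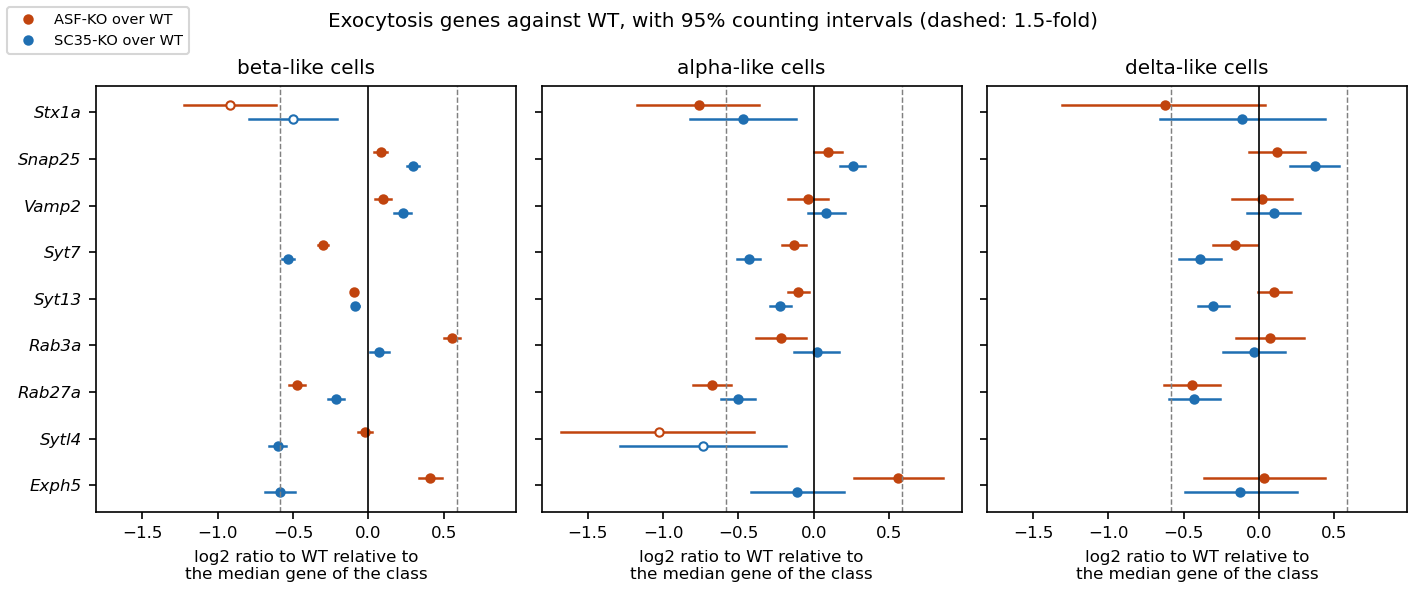
Log2 ratio to WT relative to the median gene of the class (horizontal axis) for each gene (vertical axis) in beta-like, alpha-like and delta-like cells, with lines for 95% counting intervals, dashed lines at 1.5-fold and open points for genes under 10 CPM in both sums. Genes with under 20 UMIs in either sum are left out. Rab27a and Syt7 lie left of 0 in all 3 classes under both labels, and in beta-like cells Exph5 lies at 0.41 for ASF-KO and -0.59 for SC35-KO.

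Counted over the set, 8 of 9 genes were measured in beta-like cells, the exception being Stx1a. For ASF-KO over WT, 0 of the 8 were past 1.5-fold higher and 0 lower, where 9.08% and 8.13% of all 6578 measured genes were, and the median of the 8 was 0.03 on the relative log2 scale. For SC35-KO over WT, 0 of 8 were higher and 2 lower (Sytl4 and Exph5), where 3.59% and 2.54% of 6544 genes were, with a median of -0.15. Exph5 lay just past the mark at -0.59 and Syt7 just inside it at -0.53. Sytl4 stayed past the mark in all 9 alternative sets of cells or weights tried (-0.85 to -0.60), and Exph5 in 3 of 9 (-0.63 to -0.49). Rab3a of ASF-KO passed it in 2 of 9 (0.44 to 0.66).

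In alpha-like cells 8 genes were measured, all but Sytl4. For ASF-KO over WT 0 were higher and 2 lower (Stx1a and Rab27a), beside 4.45% and 6.66% of 8136 genes, and Stx1a was measured there only through WT, at 10.7 CPM. For SC35-KO over WT 0 were higher and 0 lower, beside 2.58% and 2.61% of 7883 genes. In delta-like cells, where Sytl4 again was not measured, 0 were higher and 1 lower for ASF-KO (Stx1a, likewise measured through WT, with an interval of the ratio from 0.407 to 1.04), beside 5.65% and 7.86% of 8741 genes. For SC35-KO 0 were higher and 0 lower, beside 3.79% and 4.14% of 8752 genes.

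RNA of other cell types in the beta-like sums differed between libraries. The 14 exocrine enzyme genes, 13 of them detected, summed to 372 CPM (ASF-KO), 81.6 CPM (SC35-KO) and 581 CPM (WT), the 10 endothelial markers to 6.33, 6.59 and 20.8 CPM, and the 10 macrophage markers to 35.7, 47.8 and 37.5 CPM. With beta-like cells above 0.1% exocrine UMIs left out, Sytl4 and Exph5 of SC35-KO stayed past 1.5-fold, at -0.63 and -0.63 relative to the median gene. That step dropped 161 (ASF-KO), 21 (SC35-KO) and 491 (WT) cells and left the exocrine RNA of the other cells in the sums. The part of this remaining RNA, and of the endothelial and macrophage RNA, was not tested.

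Shares of cells with a UMI were compared at 1 depth. Each cell was thinned to 2000 UMIs, which left 3865, 5039 and 4710 beta-like cells (ASF-KO, SC35-KO, WT). Sytl4 was then seen in 12.3% (11.3 to 13.4) of beta-like cells labelled ASF-KO, 8.14% (7.40 to 8.93) of those labelled SC35-KO and 16.1% of WT, and in 2.15%, 0.394% and 2.06% of endothelial-like cells. Unthinned, the beta-like shares were 72.7%, 47.2% and 75.7%, at the median depths given above, where endothelial-like medians were 3358.5, 2481 and 2969 UMIs.

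Syt7 was seen in 18.3% (ASF-KO), 16.6% (SC35-KO) and 29.2% (WT) of thinned beta-like cells, against 4.84%, 7.48% and 7.87% of endothelial-like cells, and Rab27a in 8.80%, 9.96% and 15.3%, against 2.96%, 5.12% and 3.93%. Exph5 was seen in 4.63%, 2.78% and 5.35% of beta-like cells, against 0.538% of endothelial-like cells labelled ASF-KO, 0 of 254 labelled SC35-KO, which allows a share of cells with a UMI of up to 1.18% (3 cells of the total), and 0.749% in WT. For Stx1a the beta-like share (0.181%, 0.278% and 0.764%) lay under the endothelial-like share (2.151%, 2.756% and 2.996%) in every library. For Vamp2 the beta-like shares were 8.69%, 9.67% and 10.1%, against 9.14%, 12.6% and 5.62% of endothelial-like cells. In every library the counting intervals of Stx1a, Vamp2, Syt7, Rab27a and Rab3a in endothelial-like cells lay above what free hormone-cell RNA would bring. The endothelial-like shares are therefore no measure of background for these genes. Insulin makes 53.5% to 63.8% of the UMIs of beta-like cells, so that 2000 UMIs hold fewer other molecules there than in other classes. They also hold fewer in KO-labelled than in WT beta-like cells, so the shares of these libraries are not on an equal footing.

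**Figure D3:**
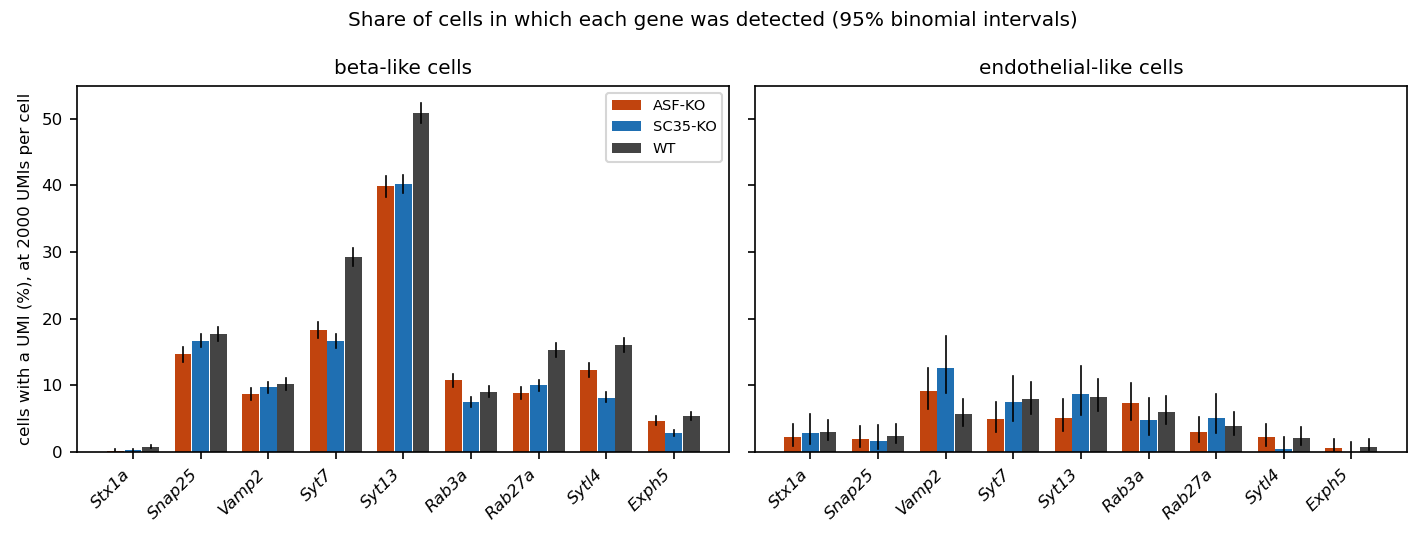
Percent of cells with at least 1 UMI of each gene after thinning every cell to 2000 UMIs (vertical axis, from 0), in beta-like and endothelial-like cells of the 3 libraries, with exact 95% binomial intervals. Syt13, Syt7, Snap25, Rab27a and Sytl4 stand above the endothelial-like share in beta-like cells of every library, and Stx1a stands below it.

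A thinned beta-like cell held on average 1.18 of the 9 genes when labelled ASF-KO, 1.12 when labelled SC35-KO and 1.54 in WT. None was seen in 26.3%, 29.0% and 17.3% of cells, and 4 or more in 1.42%, 1.51% and 4.42%. Alpha-like cells held 1.41, 1.15 and 1.43, and delta-like cells 1.49, 1.39 and 1.52, so WT had the highest mean of these 3 classes and the gap was widest in beta-like cells. Insulin took 63.8% (ASF-KO), 63.2% (SC35-KO) and 53.5% (WT) of beta-like UMIs. The 2000 UMIs thus held fewer other molecules in KO-labelled than in WT beta-like cells, and the part of this in the gap was not tested. Gamma-like cells held 1.13, 0.906 and 0.980. Endothelial-like cells held 0.360, 0.433 and 0.399.

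Within each library some of the genes also differed along the insulin content of beta-like cells, and Vamp2 and Stx1a had overlapping intervals in low-insulin and high-insulin cells of all 3 libraries. Beta-like cells of a library were put in 3 equal groups (low, middle, high) by the insulin share of their UMIs. Levels were taken as CPM of the UMIs left once hormone and mitochondrially encoded genes were out of the total, so that insulin does not enter it. On that scale Sytl4 stood at 251.4 in high-insulin and 193 in low-insulin cells labelled ASF-KO, at 183 and 118 in those labelled SC35-KO, and at 254 and 203 in WT, with intervals that did not overlap. Rab3a too was higher in the high-insulin cells of each library (202 and 173, 149 and 126, and 142 and 123 in the same order).

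Syt7 and Snap25 ran the other way in all 3 libraries. Syt7 stood at 304 in high-insulin and 397 in low-insulin cells (ASF-KO), at 276 and 333 (SC35-KO) and at 403 and 476 (WT). Snap25 stood at 247 and 279, 290 and 330, and 227 and 275 in the same order. Exph5 was lower in the high-insulin cells under SC35-KO (38.1 and 54.7) and in WT (59.5 and 74.0), and the intervals overlapped under ASF-KO (85.7 and 88.2). Rab27a was lower in the high-insulin cells of ASF-KO (127 to 141, beside 146 to 162) and WT (179 to 194, beside 207 to 222), and its intervals overlapped under SC35-KO. Syt13 was higher in the high-insulin cells under SC35-KO (909.9 and 843.3) and in WT (962.9 and 901.7), and its intervals overlapped under ASF-KO. Depth moved with insulin: high-insulin and low-insulin cells had medians of 30924 and 21538 UMIs under ASF-KO, 20614.5 and 13519 under SC35-KO, and 25404.5 and 18972.5 in WT, and its part was not tested.

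The high-insulin cells still differed between libraries. Sytl4 of SC35-KO stood at 183 (174 to 193) against 254 (246 to 263) in WT, Syt7 at 276 (265 to 287) against 403 (392 to 413) and Exph5 at 38.1 (34.0 to 42.5) against 59.5 (55.4 to 63.8). Rab27a of ASF-KO stood at 134 (127 to 141) against 186 (179 to 194), and Rab3a of ASF-KO at 202 (194 to 211) against 142 (136 to 149). The groups are cut within each library, and the median insulin share of the high-insulin cells was 68.6% (ASF-KO), 68.9% (SC35-KO) and 59.5% (WT).

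**Figure D4:**
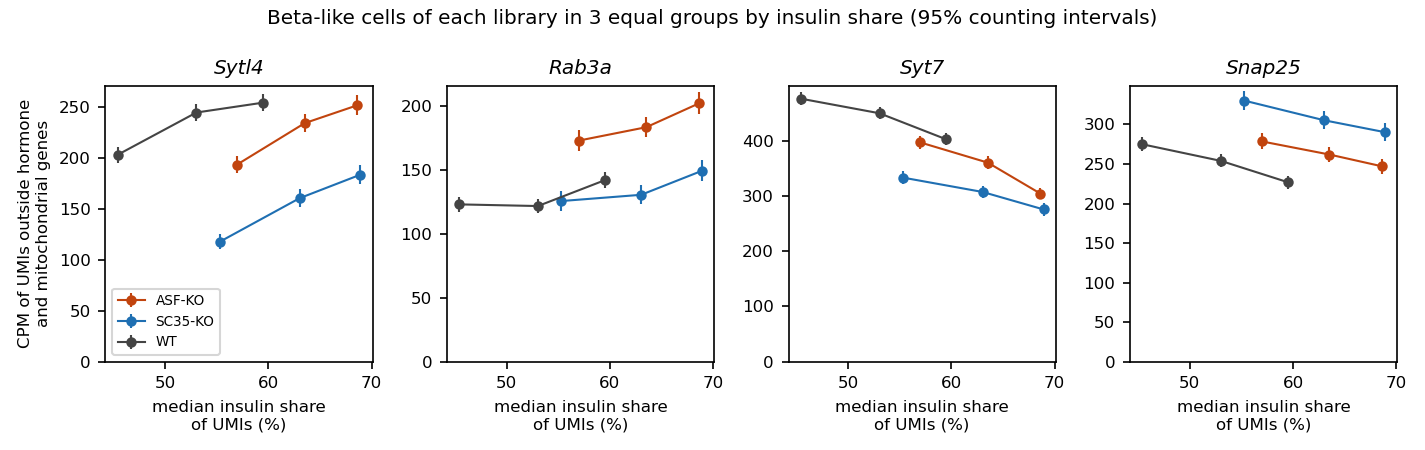
Level of 4 genes as CPM of the UMIs outside hormone and mitochondrially encoded genes (vertical axis, from 0) in 3 equal groups of beta-like cells by insulin share (horizontal axis, median percent of UMIs), with 95% counting intervals. Lines join the groups of 1 library; Sytl4 and Rab3a are higher and Syt7 and Snap25 lower in high-insulin than in low-insulin cells of every library.

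The 102-gene list of the exocytosis machinery, which holds the 9 genes, is set out by role for beta-like cells. For ASF-KO over WT, 57 were measured, of which 6 were past 1.5-fold higher and 4 lower, with a median of 0.04. For SC35-KO over WT, 55 were measured, 1 was higher and 3 lower, with a median of -0.05. The shares of all genes given above were 9.08% and 8.13%, and 3.59% and 2.54%.

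The lowest ratio to WT of the list was the same gene under both labels, and both ratios share 1 WT library. Rims3, a short RIM protein without the Rab-binding part of its long relatives, stood at 21.1 CPM (ASF-KO), 25.8 CPM (SC35-KO) and 60.8 CPM (WT), or ratios of 0.347 (0.330 to 0.364) and 0.425 (0.406 to 0.446). Under ASF-KO the granule GTPases Rab37 (31.8 CPM, against 81.0 in WT) and Rab3b (15.8, against 38.1) and the SNARE-binding complexin-2, Cplx2 (93.6, against 195), followed, then Tbc1d10b (7.01, against 14.1), a regulator of Rab GTPases that lay inside the mark at -0.58. Under SC35-KO, Sytl4, Exph5, Syt7 and the exocyst subunit Exoc2 (7.68 CPM, against 14.2 in WT) followed Rims3. Tbc1d10b under ASF-KO and Exoc2 under SC35-KO were below 10 CPM and so were measured only through WT, in which they were higher.

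At the other end, Syt5, a vesicle synaptotagmin, stood at 14.2 CPM under ASF-KO, against 6.39 CPM in WT, a ratio of 2.22 (2.03 to 2.43). The priming factor Unc13a (ratio 1.53), the Rab27 effector Sytl1 (1.33), the broadly expressed SNARE Snap23 (1.32) and the vesicle SNARE Vamp7 (1.32) came next, followed by Unc13b (1.18), the last of the 6 past the mark. Syt5, Unc13a and Sytl1 were under 10 CPM in WT and so were measured only through the ASF-KO sum, in which they were higher. Syt5 under ASF-KO was likewise higher in delta-like cells, at 74.0 CPM, against 26.3 CPM in WT. Under SC35-KO the highest ratios were those of Exoc7 (1.15), Unc13a (1.04), Vamp7 (1.03), Snap25 (0.907) and the Rab3 exchange factor Madd (0.899), all above the median gene of 0.739, and Exoc7 alone was past the mark.

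In alpha-like cells 5 of 70 measured list genes were past 1.5-fold higher and 6 lower for ASF-KO, beside the 4.45% and 6.66% of all genes given above, and 0 and 0 of 66 for SC35-KO, beside 2.58% and 2.61%. Rab3b and Rab37 were among the lower ones under ASF-KO, at ratios of 0.680 and 0.684. The higher ones were Syt1, Sytl5, Rab27b, Pclo and Madd, of which Rab27b, a close relative of Rab27a, stood at 13.8 CPM, against 8.21 CPM in WT. Syt1 and Rab27b were measured only through the ASF-KO sum, in which they were higher, and Stx1a and Sytl2, among the lower ones, only through WT. In delta-like cells 7 of 69 were higher and 3 lower (Rab3d, Stx1a and Tbc1d10b) for ASF-KO, beside 5.65% and 7.86% of all genes, and 1 (Unc13b) and 0 of 68 for SC35-KO, beside 3.79% and 4.14%.

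**Figure D5:**
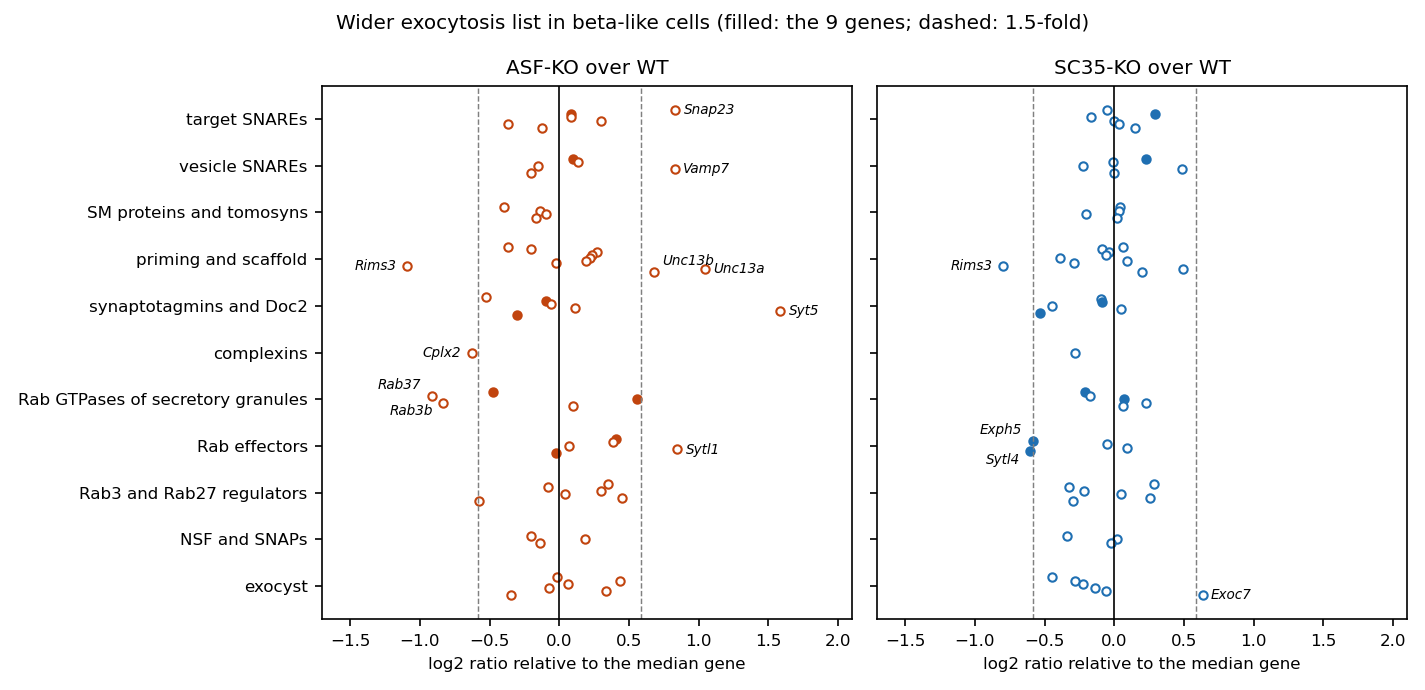
Log2 ratio to WT relative to the median gene in beta-like cells (horizontal axis) for the measured genes of the wider exocytosis list by role (vertical axis), with 1 point per gene, filled points for the 9 genes and dashed lines at 1.5-fold. Under ASF-KO Rims3, Rab37, Rab3b and Cplx2 lie left of the marks and 6 genes right of them; under SC35-KO 3 genes lie left and Exoc7 right.

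As a description of pattern, each gene was set beside all others over 12 sums (beta-like, alpha-like, delta-like and endothelial-like cells of the 3 libraries), on log2(CPM + 1), with no test, since the sums share libraries and totals. Of 10329 genes, Sytl4 was most like Ucn3 (Pearson r 0.992), the urocortin of mature beta cells, and Tmem215 (0.988). Syt7 was most like Scgn (0.991), the calcium-binding secretagogin, and Syt13 most like Syt4 (0.990), another synaptotagmin. Snap25 was most like the epithelial splicing regulator Esrp1 (0.994), Rab27a like Cfap410 (0.988) and the KATP channel subunit Kcnj11 (0.986), Rab3a like Hspa13 (0.971), Vamp2 like Cyld (0.973), Exph5 like Slc44a3 (0.965) and Stx1a like Pef1 (0.993). Between members, Syt7 ran with Rab27a (0.9495) and Snap25 (0.9484), whereas Sytl4 ran with none of them and was highest with Exph5 (0.159).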

How the data were processed

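Single-cell RNA-seq libraries of islet cells from ASF-KO, SC35-KO and WT mice 9 months old, 1 each, were analysed from the deposited matrices, which hold UMI counts per gene and barcode with no normalization. Per the file headers and the submitters' processing notes, Cell Ranger 5.0.0 was used, and the notes also name STAR, Seurat and mm10. Libraries were made with a Chromium 3' kit, per the labels' protocols, so a count marks a transcript's 3' end and levels were not divided by length.

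A barcode was kept from 500 genes and 1000 UMIs up, if mitochondrial genes made no more than 20% of its UMIs, and doublets were marked in each library with Scrublet, run in scanpy 1.11.5 at its automatic threshold (319 or 4.31% in ASF-KO, 886 or 7.58% in SC35-KO and 291 or 3.13% in WT), and removed. Cells were gated by the share of their UMIs from insulin (at least 20%), Gcg or Sst (at least 5%) or Ppy (at least 10%), with at most 2% from Gcg or Sst in another class, or by counts of non-hormone markers making at least 0.2% of UMIs. These cuts were set after the distributions were seen. Between 10% and 30% insulin lay 376, 346 and 175 cells (ASF-KO, SC35-KO, WT), of which 63, 59 and 65 entered the beta-like class. Cells with hormones or markers of more than 1 class (305, 922 and 648) or of none (280, 292 and 347) were left out.

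UMIs were summed per class and library and scaled to CPM, with exact Poisson 95% intervals for sums, the exact conditional binomial interval for ratios and exact (Clopper-Pearson) intervals for shares. A gene was called measured in a comparison when either sum reached 10 CPM. Ratio intervals were tried on simulated Poisson counts, which hold no spread between cells or libraries and so cannot speak to that spread. The work was done in python 3.11.15 with scipy 1.17.1, pandas 2.3.3, numpy 2.4.6 and matplotlib 3.10.9.

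The 9 genes are named because they make the set. From the 102-gene list, the 5 highest and 5 lowest ratios of measured genes in beta-like cells are named for each label, and for each of the 9 the genes of most like pattern. Genes of the list named in alpha-like and delta-like cells were picked after their values were seen. The members, lists and cell markers were chosen with earlier results of these data known. The alternatives tried were looser and stricter cell filters and gates, doublets kept, exocrine-rich cells left out, other scalings, equal weight of cells, thinning, and other floors; the insulin window of 50% to 65%, CPM ratios with no shift and the groups by insulin share were added after seeing the data.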

Additional observations from a re-analysis of the deposited data

How the results depend on the processing

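Counts of genes past 1.5-fold in beta-like cells depended mostly on the shift and the floor. With CPM ratios taken with no shift, 2 of the 9 genes were lower for ASF-KO and 4 for SC35-KO, in place of 0 and 2 relative to the median gene. On that scale the 102-gene list had 2 genes higher and 17 lower under ASF-KO, against 6 and 4, and 0 higher and 20 lower under SC35-KO, against 1 and 3. With no floor but 20 UMIs over both sums, 1 of the 9 genes was higher and 1 lower under ASF-KO, and the list had 11 higher and 12 lower under ASF-KO and 6 higher and 8 lower under SC35-KO. With a floor of 50 CPM the list had 0 higher under both labels, and 1 of the 9 genes was lower under SC35-KO.

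Under ASF-KO, 1 of the 9 genes was higher without exocrine-rich cells and after thinning. Under SC35-KO, 1 of the 9 was lower, in place of 2, with doublets kept, the looser cell filter, the looser gate, the insulin window, equal weight of cells and thinning, and the list had 0 higher with the insulin window, equal weight and thinning. Of the 9 genes, none past 1.5-fold changed direction relative to the median gene in the alternatives run. The direction of the other list genes was not followed over the alternatives. No paired analysis was possible because each genotype has 1 library. The counts bound counting error only, and with no replicate the spread between mice is unknown.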
